A study of Mus musculus with 4 samples.

Results

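Runx3 and Ebf3 encode DNA-binding regulators of cell fate, and both transcripts were read in reporter-positive testis cells that carried ckit on their surface and in those that did not. The members were every probe set that the authors' deposited table of differing probe sets assigns to either gene: 1 for Runx3 (1440275_at) and 2 for Ebf3 (1460666_a_at and 1428349_s_at), so 3 of 45037 non-control probe sets. That table lists only probe sets at least 2-fold apart in the authors' own values, which were processed in another way than the RMA levels. A probe set of either gene that missed its threshold is therefore not analysed here. The genes were chosen for their difference between these populations, and their values are therefore given as a description, without a test.

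The tested cells were Sox2GFP+ckit+ cells (ckit+ below), which the labels describe as unable to rebuild damaged seminiferous tubules. They were compared with Sox2GFP+ckit- cells (ckit- below), described as able to do so. Both populations were sorted from mice 2 weeks old that carried the Sox2GFP reporter on a mixed 129SvJae/BL6 background, with 20 testes pooled for a sample and 2 biological replicates per population. RNA was amplified from a small input and hybridised to 4 arrays. The labels do not say which cells of the testis turn the reporter on. In such sorted bulk samples fewer cells with a transcript and less of it per cell cannot be told apart.

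Runx3 belongs to the runt family, whose members bind DNA through the Runt domain together with the partner protein Cbfb and act as activators or repressors. In mice it is known from cytotoxic T cells and from proprioceptive sensory neurons. Ebf3 belongs to the COE (Collier, Olf and EBF) family, which binds DNA through a zinc-coordinating domain and includes Ebf1, the B-cell lineage factor. Ebf3 itself is known mainly from developing neurons. Kit, which encodes ckit, is the receptor for stem cell factor and marks spermatogonia that have begun to differentiate, while many undifferentiated spermatogonia lack it.

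In the GRCm38.p6 assembly Runx3 (gene ID 12399) spans bases 135120645 to 135177990 of chromosome 4, and Ebf3 (gene ID 13593) bases 137193671 to 137322805 of chromosome 7, on the reverse strand. Runx3 has a distal and a proximal start site 31900 bases apart, a layout it shares with Runx1. The 250 bases before each start site of the genes that had a promoter window are shown because the genes were higher in the same cells. A family motif stands in 1 of the 3 windows. Capitals mark TGTGGT or its reverse complement ACCACA, the core that RUNX proteins bind, and the strand shown is that of the gene.
Runx3 distal, chr4:135120395-135120644: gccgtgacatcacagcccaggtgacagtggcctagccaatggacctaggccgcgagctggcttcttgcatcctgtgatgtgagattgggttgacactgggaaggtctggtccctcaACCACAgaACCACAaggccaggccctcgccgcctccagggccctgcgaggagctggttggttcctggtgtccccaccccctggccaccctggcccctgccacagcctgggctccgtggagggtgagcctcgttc
Runx3 proximal, chr4:135152295-135152544: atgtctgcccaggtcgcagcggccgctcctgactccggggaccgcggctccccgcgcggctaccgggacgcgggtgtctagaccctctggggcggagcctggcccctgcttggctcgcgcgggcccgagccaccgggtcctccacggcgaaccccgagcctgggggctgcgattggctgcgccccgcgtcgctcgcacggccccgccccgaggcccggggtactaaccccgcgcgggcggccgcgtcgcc
Ebf3, chr7:137314446-137314695: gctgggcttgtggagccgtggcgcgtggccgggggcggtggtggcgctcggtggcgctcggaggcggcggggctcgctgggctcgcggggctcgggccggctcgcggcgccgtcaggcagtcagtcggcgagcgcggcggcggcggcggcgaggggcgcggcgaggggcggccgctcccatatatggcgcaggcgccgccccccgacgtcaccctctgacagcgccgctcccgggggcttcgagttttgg

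The distal Runx3 window held the RUNX core as a pair on the reverse strand, at bases -134 to -129 and -126 to -121 from the start site. Over the full window of 250 bases before and 50 after a start site, 16.8% of 32851 RefSeq windows held at least 1 core on either strand and 1.81% at least 2. The same pair, TGTGGT repeated after a gap of 2 bases, was found in 7 windows on either strand. Of these, 3 were the window of Runx3 and the upstream windows of Runx1 and Runx2, and another, of Gm16225, covers the Runx3 pair from the opposite strand. The other members of the runt family carried the pair just after their start sites, in nearly the same letters, so the 3 sites are shown side by side on the strand of each gene, with the cores in capitals.
Runx3 site, chr4:135120507-135120528: ctcaACCACAgaACCACAaggc
Runx1 site, chr16:92826029-92826050: aacaACCACAgaACCACAagtt
Runx2 site, chr17:44814587-44814608: aacaACCACAgaACCACAagtg
The proximal Runx3 window and the Ebf3 window held no RUNX core. The EBF motif, TCCC and GGGA with 2 bases between them, which reads the same on both strands and was found in 0.904% of all windows, was absent from the windows of both genes. Their base composition differed: the proximal Runx3 and the Ebf3 window had 77.3% and 77.0% G and C with 45 and 46 CG dinucleotides, whereas the distal Runx3 window had 63.7% with 8 (medians over all windows, 52.7% and 7). The start site of the Ebf3 window lies 8360 bases inside the annotated gene, so the bases before the outer end of Ebf3 were not searched. The probe sets carry no positions here, so the start site from which either transcript came was not tested.

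**Figure D1:**
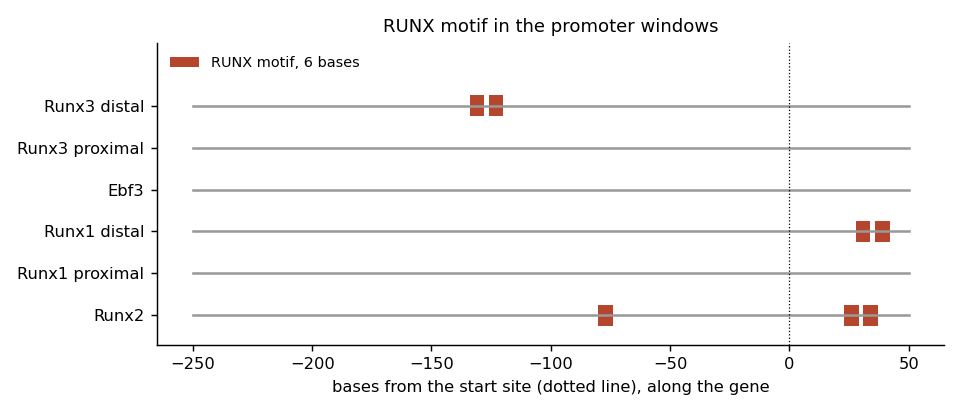
Positions of the RUNX motif (red, 6 bases each) in promoter windows from 250 bases before to 50 bases after the start site (dotted line), in bases along each gene. Runx3, Runx1 and Runx2 each have a pair in the distal or only window, before the start site in Runx3 and after it in the other two, Runx2 has a further single motif before it, and the Ebf3 window has no motif.

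On the arrays both genes stood higher in ckit+ cells on every probe set. Runx3 read 9.31 and 9.34 in ckit+ cells (log2 RMA level, replicates 1 and 2), against 7.31 and 6.59 in ckit- cells. The ckit+ arrays were nearly equal, the ckit- arrays were lower and 0.73 apart, and the populations did not overlap. The means were 9.32 ± 0.02 in ckit+ and 6.95 ± 0.51 in ckit- cells (SD, n = 2 each), a log2 difference of 2.38 ± 0.26 (standard error of limma's fit over all probe sets), or 5.19-fold.

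For Ebf3, probe set 1460666_a_at read 8.37 and 8.16 in ckit+ cells, against 6.10 and 5.64 in ckit- cells. Both ckit- arrays lay below the array medians of 6.41 and 6.42 and both ckit+ arrays above the upper quartiles of 8.12 and 8.15. The log2 difference was 2.39 ± 0.21, or 5.25-fold. The other Ebf3 probe set, 1428349_s_at, read 8.29 and 8.22 in ckit+ cells, against 6.50 and 6.89 in ckit- cells. Its arrays did not overlap between the populations either, and its log2 difference was smaller, 1.56 ± 0.19, or 2.95-fold. The Ebf3 probe sets also ordered the ckit- arrays differently, with replicate 1 higher on 1460666_a_at and replicate 2 higher on 1428349_s_at.

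**Figure D2:**
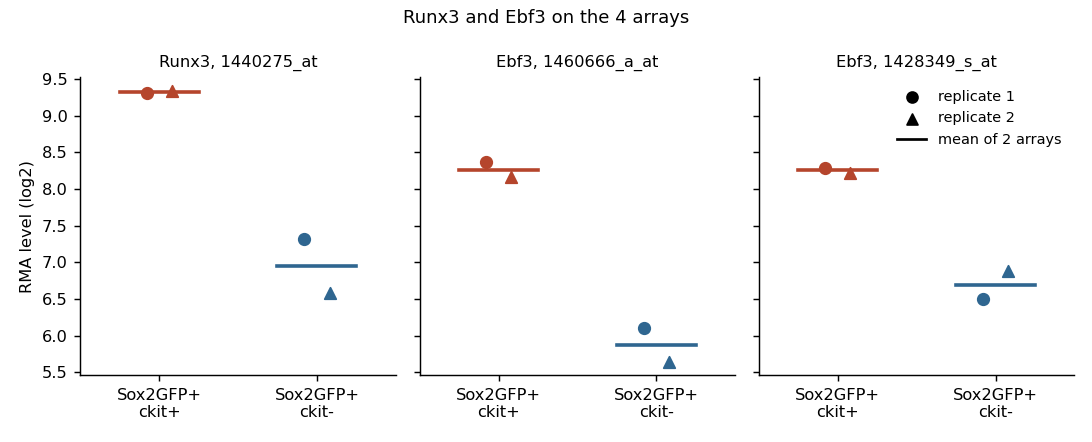
RMA level (log2) of the Runx3 probe set and the 2 Ebf3 probe sets on each array, ckit+ left of ckit-, with a bar at the mean of 2 arrays. In every panel the ckit+ arrays lie above both ckit- arrays (for Runx3, 9.31 and 9.34 above 7.31 and 6.59) and closer together than these. For Ebf3 1460666_a_at the ckit+ arrays are 0.21 apart. Levels are comparable within a panel only.

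The spread between replicates was wider on the ckit- side in the RMA values. The ckit- gap of Runx3 was 0.73, against a ckit+ gap of 0.03. Over all probe sets, 4.93% had a ckit- gap at least as wide, and 4.70% of the 1000 probe sets nearest in mean level did. The ckit- gaps of the Ebf3 probe sets were 0.45 (1460666_a_at) and 0.39 (1428349_s_at), reached by 17.3% and 23.6% of all probe sets, and their ckit+ gaps 0.21 and 0.07.

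Because of this spread, the size of each difference varied with the arrays compared. For Runx3 the nearest ckit+ and ckit- arrays lay 2.00 apart and the farthest 2.75 apart on the log2 scale. For Ebf3 the corresponding distances were 2.0598 and 2.73 on 1460666_a_at and 1.34 and 1.79 on 1428349_s_at. Between arrays of the same replicate number, Runx3 differed by 2.00 and 2.75 (replicates 1 and 2), Ebf3 by 2.27 and 2.51 on 1460666_a_at and by 1.79 and 1.34 on 1428349_s_at.

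Among all 45037 probe sets ordered by the ckit+ minus ckit- difference, Ebf3 1460666_a_at held rank 2, Runx3 rank 3 and Ebf3 1428349_s_at rank 40. The brighter probe set of Kit, the sorted marker, stood at rank 1. It read 9.68 and 9.62 in ckit+ cells, against 6.87 and 6.78 in ckit- cells. The other Kit probe set read 7.91 and 8.27 in ckit+ cells, against 6.22 and 5.44 in ckit- cells. Its log2 difference of 2.26 was smaller than those of Runx3 and Ebf3 1460666_a_at (2.38 and 2.39). Both Kit probe sets differed in the direction in which the cells were sorted. Arrays that did not overlap, with ckit+ higher, were common, at 24.5% of all probe sets, while such a separation with at least a 2-fold difference was found in 0.673%. All 3 Runx3 and Ebf3 probe sets fell in both classes. They were chosen on the same contrast, so nothing is read from that count.

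**Figure D3:**
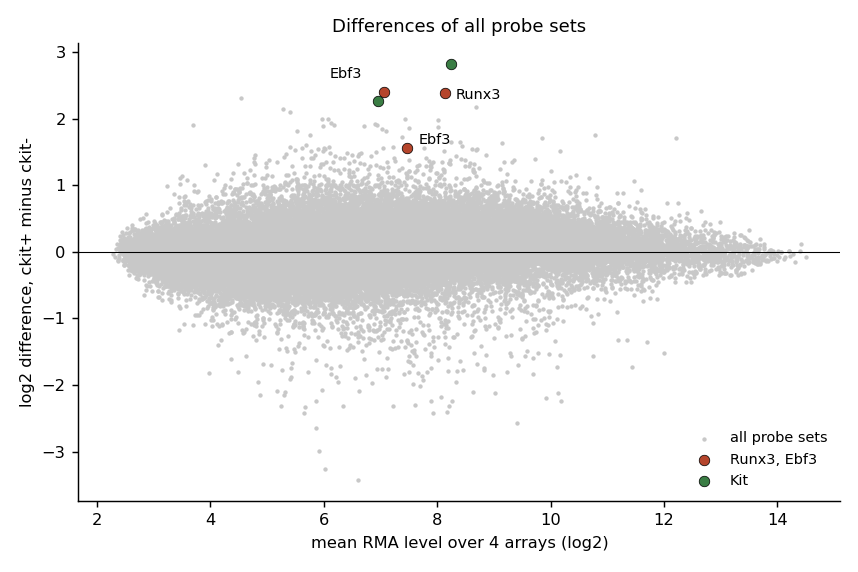
Log2 difference (ckit+ minus ckit-) of every probe set against its mean level over 4 arrays (log2 RMA), with Runx3 and Ebf3 in red and both Kit probe sets in green. Runx3 and the upper Ebf3 probe set lie at 2.38 and 2.39, below the higher Kit probe set, and the other Ebf3 probe set lies at 1.56.

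The authors' deposited table gives means from values that were processed in another way. For Runx3 its means were 8.474 (SEM 0.075) in ckit+ and 6.122 (SEM 0.174) in ckit- cells, which differ from the RMA means by -0.85 and -0.83 on the log2 scale. Both groups were lower by nearly the same amount, and the ratio in the authors' deposited table, 5.11, was close to the RMA fold. The authors' SEMs of Runx3 were less unequal between the populations than the RMA SDs (0.02 in ckit+ and 0.51 in ckit- cells). For Ebf3 1460666_a_at the authors' deposited table gives 8.294 (SEM 0.095) and 5.675 (SEM 0.180), a ratio of 6.14, which is wider than the RMA fold because its ckit- mean was 0.19 lower. For Ebf3 1428349_s_at the authors' deposited table gives 8.025 (SEM 0.041) and 6.442 (SEM 0.158), a ratio of 3.

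A further probe set, 1456513_at, is described in the authors' deposited table as an EST weakly similar to COE3, an older protein name of Ebf3. It was outside the rule for members and was chosen here after its values were seen. It read 6.18 and 6.20 in ckit+ cells, against 4.83 and 4.39 in ckit- cells. The direction was the same, but the ckit- values lay below the lower quartiles of those arrays (5.01 and 5.04), so no size of the difference is given. Whether it measures the Ebf3 transcript was not tested.

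The profiles of other named genes over the 4 arrays were compared with those of Runx3 and Ebf3 by Euclidean distance after each profile was centred on its own mean, which measures likeness in direction, size and replicate order together. All genes with a name had been selected by the authors on the same arrays, and the order describes these arrays only. Of 250 named probe sets compared, the nearest to Runx3 was Med1, a subunit of the Mediator complex that links factors to RNA polymerase, at a distance of 0.24. Med1 read 6.308 and 6.395 in ckit+ cells, against 4.59 and 3.83 in ckit- cells, so its ckit- values lay below the lower quartiles of those arrays, and its distance and place rest on dim values. Ebf3 followed at 0.26 (1460666_a_at), then the dimmer Kit probe set at 0.26, which had a ckit- gap of 0.78. The brighter Kit probe set had a ckit- gap of 0.09 and lay farther from Runx3. Tc2n and Whrn (whirlin, a scaffold protein of hair cells and photoreceptors) were next at 0.51 and 0.61. Over the whole array, 1 probe set other than Runx3 itself lay nearer to Runx3 than Ebf3 1460666_a_at did.

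For Ebf3 the rule took its probe set with the higher mean, 1428349_s_at. Its nearest named genes were Pcdh19 (a protocadherin, a cell adhesion molecule) at 0.12 and Zfp503 (a zinc finger protein) at 0.13. Pcdh19 read 5.58 and 5.44 in ckit+ cells, against 3.86 and 4.26 in ckit- cells. Zfp503 read 6.14 and 6.01 in ckit+ cells, against 4.35 and 4.85 in ckit- cells. These ckit- values lay below the lower quartiles of those arrays too, so the distances and places of both genes rest on dim values. Whrn followed at 0.24, Fgf13 (a fibroblast growth factor homolog that is kept inside the cell) at 0.25 and Anxa4 (an annexin) at 0.27. The other Ebf3 probe set lay at 1.03 and Runx3 at 1.13, so the profiles of the 2 Ebf3 probe sets were less alike than those of Ebf3 1460666_a_at and Runx3. Whrn was the only gene among the 5 nearest of both, by a different probe set in each case.

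**Figure D4:**
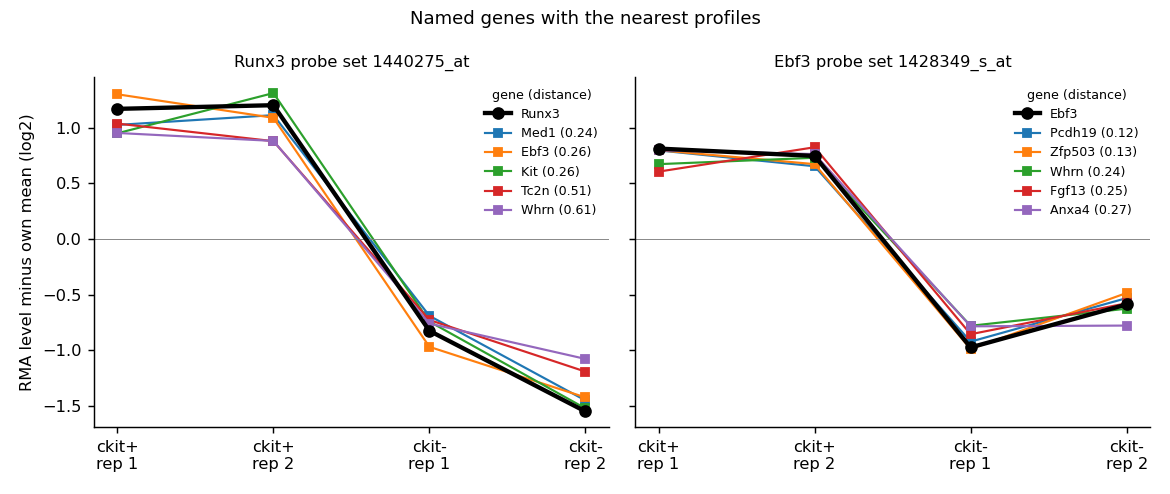
RMA level minus the mean of the probe set over 4 arrays (log2), for Runx3 (left) and Ebf3 1428349_s_at (right) in black with the 5 nearest named genes in colour; the number beside a gene is its distance. The Runx3 group falls further in ckit- replicate 2 than in replicate 1, and the Ebf3 probe set on the right has the opposite order of the ckit- arrays. Lines join values of 1 probe set and show no sequence in time.

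Other genes of the same pathways could be read only where the authors' table named them. None of 13 listed genes of the runt family, its partners and its Groucho co-repressors had a named probe set, and none of 7 for the Ebf family and its partners, so Runx1, Runx2, Cbfb, Ebf1, Ebf2 and Ebf4 are not analysed here. Of 15 genes known as RUNX3-regulated elsewhere, 0 were named. Of 13 known as EBF-regulated elsewhere, the chemokine gene Cxcl12 was named, and it fell in ckit+ cells, with 5.22 and 4.89, against 6.63 and 6.72 in ckit- cells (adjusted p = 0.041 by limma). The Cxcl12 value in ckit+ replicate 2 lay below the lower quartile of that array (4.93). Of 27 genes of TGF-beta and BMP signalling, a pathway in which RUNX proteins partner SMAD factors, Fst (follistatin, an activin antagonist) was named. It fell as well, with 6.36 and 6.41 in ckit+ cells, against 7.63 and 7.75 in ckit- cells (adjusted p = 0.048 by limma). Over the whole array an adjusted p under 0.05 by limma was reached by 0.309% of features, 0.115% higher and 0.193% lower in ckit+ cells. The authors chose the named genes on these arrays, so their direction is no independent evidence.

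Of 39 listed regulatory genes of spermatogonia and lineage choice, 13 were named, and 2 of these had higher values in ckit+ cells, as Runx3 and Ebf3 did. Mitf, a bHLH factor that acts with Kit in melanocytes and mast cells, rose, with 7.90 and 7.75 in ckit+ cells, against 6.39 and 6.13 in ckit- cells (adjusted p = 0.041 by limma). Rhox13, a homeobox gene of the testis, had 11.25 and 11.21 in ckit+ cells, against 9.96 and 10.29 in ckit- cells, which missed the threshold (adjusted p = 0.085 by limma). The other 11 had lower values in ckit+ cells, and 7 passed, where over all 226 named genes 121 had lower values and 48 passed. Etv5, a factor induced by GDNF, fell by 1.85 and Foxc2, a forkhead factor, fell by 2.24 on the log2 scale. Nr2e1, an orphan nuclear receptor, read 4.63 and 5.14 in ckit+ cells, against 8.23 and 8.38 in ckit- cells, and T (Brachyury) 3.86 and 3.76, against 5.97 and 5.94. The adjusted p of these 4 by limma was 0.027 each. Etv5 and Nr2e1 each had 2 named probe sets, of which only the one with the higher mean is given. Both ckit+ values of T and the replicate 1 ckit+ value of Nr2e1 lay below the lower quartiles of those arrays (4.95 and 4.93). The sizes of the T and Nr2e1 differences therefore rest partly on dim values. The median log2 difference of the 13 was -1.73, beside -0.97 over all 226 named genes and -0.0046 over all probe sets. The named genes had been selected on this contrast, and the list was chosen with earlier results of these data known. Nothing is therefore read from the size of that median.

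**Figure D5:**
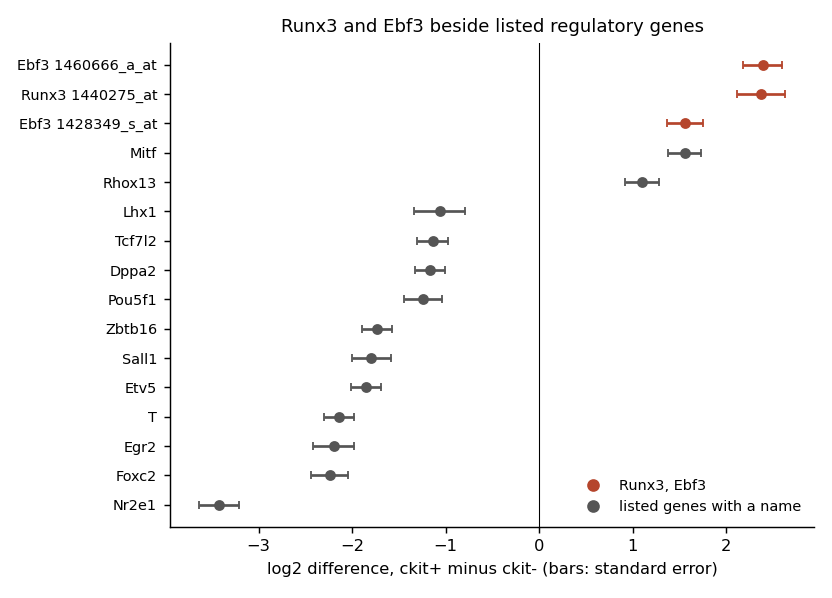
Log2 difference (ckit+ minus ckit-) with limma's standard error for the Runx3 and Ebf3 probe sets (red) and the 13 named genes of the list of regulatory genes (grey). Mitf and Rhox13 lie on the side of Runx3 and Ebf3, and the other 11 lie on the ckit- side.

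Of 17 genes listed for differentiating spermatogonia, 6 were named, all higher in ckit+ cells, and 4 passed (median log2 difference 1.61). Of the 226 named genes as a whole, 105 had higher values in ckit+ cells and 28 passed as higher, with a median of -0.97, and over the whole array 0.115% of probe sets passed as higher. Kit had defined the sort. The list was chosen with earlier results of these data known, and the authors had selected the named genes on these arrays. The counts and the median of this list are therefore no independent evidence. Stra8, which retinoic acid induces before meiosis, read 12.999 and 13.13 in ckit+ cells, against 11.33 and 11.41 in ckit- cells (adjusted p = 0.028 by limma). The retinoid-binding genes Crabp1 and Rbp4 passed too, with log2 differences of 1.76 and 1.52 (adjusted p = 0.037 and 0.041 by limma). The differences of Runx3 and Ebf3 1460666_a_at were larger than those of each of the named genes of this list apart from Kit. Kit exceeded them by its brighter probe set only, and its other probe set differed by less (2.26). The difference of Ebf3 1428349_s_at (1.56) was smaller than those of Stra8 (1.70) and Crabp1. Both sides were chosen on this contrast, so nothing is read from this order of measured values, which was not tested.

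Runx3 is also a gene of T and dendritic cells, and a ckit sort can hold mast cells, so markers of other cells were listed. Of 67 genes in 10 marker lists, 3 were named, and 7 lists, among them those of T, NK and dendritic cells, B cells and germ cells, had no named gene and are not analysed here. Mitf, 1 of 7 for mast cells, was higher in ckit+ cells, as given above. Plvap, 1 of 7 for endothelium, fell in ckit+ cells, with 5.40 and 5.39, against 6.77 and 6.91 in ckit- cells (adjusted p = 0.040 by limma). Tagln, 1 of 5 for peritubular myoid cells, had 5.97 and 6.001 in ckit+ cells, against 6.81 and 6.89 in ckit- cells, which missed the threshold (adjusted p = 0.10 by limma). Their part in the levels of Runx3 and Ebf3 was not tested.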

How the data were processed

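The authors had summarised 4 arrays to log2 levels per probe set by RMA, per the submitters' processing notes. The RMA version and array model are not given in the sources used here. A further deposited table held the authors' means and SEMs (log2), a ratio (linear fold), p-values and adjusted p-values from their t-tests, with a Benjamini-Hochberg adjustment for 605 tests, per the file headers. How those values were normalized is not given in the sources used here. Its p-values were not used. Gene names came from this table: of 374 probe sets, 61 were named by RefSeq accession, 103 by symbol and 98 by full name through a GRCm38.p6 RefSeq table, giving 226 genes. A gene with several probe sets is given by the one with the highest mean, except among the nearest profiles.

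Here limma 3.58.1 in R 4.3.3 was fitted to the log2 values of 45037 probe sets, with 64 controls left out, no level filter and no covariate. The effect was ckit+ minus ckit-, two-sided, Benjamini-Hochberg adjusted over all probe sets. Array quartiles were nearly equal, so nothing was normalized again. The 2 arrays per population limit the precision. An exact permutation test of 2 against 2 cannot reach p = 0.05, and p-values measure the spread between pools only. Members and gene lists were chosen with earlier results of these data known. Named beside the members were Kit, up to 4 genes per list with the smallest p, any count of 5 or fewer, and the 5 nearest profiles per gene. Profiles were compared with the brightest probe set of Runx3 or Ebf3, and each other gene was given by its nearest probe set. RIKEN, EST and predicted names were excluded from that comparison. Sox2, no named probe set, is not analysed here. Motifs were searched in RefSeq promoter windows (GRCm38.p6).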

Additional observations from a re-analysis of the deposited data

How the results depend on the processing

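For the Runx3 and Ebf3 differences most alternatives could not turn the direction: the replicate block and the removal of dim probe sets leave the difference as it was by construction, and with 2 arrays that do not overlap the loss of 1 array cannot change its sign. These values are therefore no sign of stability. With 1 array left out in turn, the log2 difference was 2.01 to 2.74 for Runx3, 2.17 to 2.62 for Ebf3 1460666_a_at and 1.37 to 1.76 for Ebf3 1428349_s_at. Renewed quantile normalization gave 2.31, 2.36 and 1.495, and median centring 2.39, 2.41 and 1.58. The number of probe sets that limma called over the whole array was less stable. It was 139, against 554 with a replicate block, 419 with an intensity trend and 668 when a 2-fold difference without overlap replaced the adjusted p. A plain t-test called 1 probe set (5346 at an unadjusted p under 0.05). With any 1 array left out limma called 0 (4513 to 6422 at an unadjusted p under 0.05), so the calls of listed genes such as Mitf, Cxcl12 and Fst need all 4 arrays. The lone array is then assumed to vary like the other population. The cause was not tested beyond the loss of an array. Whether the numbers pair the arrays is not stated. Over all non-control probe sets, the deviations of the replicate 1 arrays from their population means had a correlation of 0.26. With 2 arrays per population, replicate 2 gives the same value by construction.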

Other observations

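Several other regulatory genes of the authors' table were higher in ckit+ cells beside Runx3 and Ebf3. They were picked after their values were seen and are given as values only. Bcl11b, a zinc finger factor of T cells and neurons, read 7.25 and 6.99 in ckit+ cells, against 5.83 and 6.02 in ckit- cells. Ikzf1 (Ikaros), a lymphoid factor, read 6.69 and 6.47 in ckit+ cells, against 5.64 and 5.99 in ckit- cells. Tbx1, a T-box factor, had a log2 difference of 1.22, and Sox11, a factor of neural progenitors, 1.13. Nr6a1, germ cell nuclear factor, read 8.10 and 8.10 in ckit+ cells, against 7.04 and 6.90 in ckit- cells. Vezf1, a zinc finger factor, had a log2 difference of 1.24. All of these differences were smaller than those of the 3 Runx3 and Ebf3 probe sets, the smallest of which was 1.56. Mitf, given above, had nearly that same difference (1.56). Both sides were chosen on this contrast, so nothing is read from that order.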
